A study of Mus musculus with 18 samples.

Results

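Coding joins made in G1-arrested v-abl transformed mouse B cells of strain 129 were compared between CtIP A/A and CtIP wild-type lines, with DNA-PKcs present and with DNA-PKcs deleted. The members are the 4 coding-join libraries whose labels give G1 as cell cycle phase, out of 12 coding-join libraries and 18 samples in the labels. They are CtIP A/A set against WT, and CtIP A/A DNA-PKcs -/- (the double mutant) set against DNA-PKcs -/-, with 1 library per genotype. Every line carried an integrated pMX-INV substrate and was treated with 3 µM STI571, an inhibitor of the Abl kinase, for 48 or 72 h. The other 8 coding-join libraries, 2 per genotype, came from cells given 24 h of STI571 and then 10 µM of the CDK1 inhibitor RO3306 for 48 h to arrest them in G2. They serve here to show how far libraries of 1 genotype differ. V-abl lines are early B-lineage cells transformed by the v-abl oncogene, and the labels do not say how many lines or clones stand behind a genotype, so genotype and cell line cannot be told apart. The junction lists hold no measurement of CtIP or DNA-PKcs, and each genotype rests on its label.

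In V(D)J recombination the RAG nuclease cuts beside a recombination signal sequence, which starts with a heptamer whose first bases, CAC, are the most conserved. Each cut leaves a blunt signal end and a hairpin-sealed coding end. The kinase DNA-PKcs activates the nuclease Artemis, which opens the hairpins, and classical non-homologous end joining then ligates the coding ends, often after loss of some bases and addition of others by terminal deoxynucleotidyl transferase. CtIP works with the MRE11 complex to start resection of broken ends, a step that is usually restrained in G1. By the study's title, the A/A allele concerns a conserved site where ATM or ATR phosphorylates CtIP. High-throughput genome-wide translocation sequencing (HTGTS) starts from a primer beside 1 RAG break, the bait, and reads which sequence, the prey, each broken end was joined to.

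Igk, a light chain locus, took most of the antigen receptor joins, and the borders of its J segments are shown because part of the counts below follow them. The sequences are from the RefSeq assembly GRCm38.p6, which is mm10, all on the + strand of chromosome 6, with the heptamer beside each J segment in capitals and the segment itself starting right after it. They begin at positions 70722534, 70722888, 70723195, 70723520 and 70723858.
Igkj1: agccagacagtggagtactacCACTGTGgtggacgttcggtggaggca
Igkj2: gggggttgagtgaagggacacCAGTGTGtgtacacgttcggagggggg
Igkj3: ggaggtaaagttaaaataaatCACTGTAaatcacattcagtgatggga
Igkj4: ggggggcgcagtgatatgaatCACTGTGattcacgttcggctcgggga
Igkj5: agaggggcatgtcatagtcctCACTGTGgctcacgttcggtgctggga
Of these, the Igkj3 heptamer alone does not end in GTG. Outside the J segments, 4 further stretches with a heptamer, again in capitals, recurred as joining sites in G1 and were picked after their counts were seen. The first lies in the intron between Igkj5 and Igkc (chr6:70724994-70725040) and the second past the Igkc gene (chr6:70751754-70751800). The third lies in an intron of the gene Gm31718 (chr8:126867692-126867738) and the fourth in an intron of Tmem189 (chr2:167685242-167685288).
Igkj5-Igkc intron: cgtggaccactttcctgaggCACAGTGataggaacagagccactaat
Downstream of Igkc: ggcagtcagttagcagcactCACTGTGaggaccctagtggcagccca
Gm31718 intron: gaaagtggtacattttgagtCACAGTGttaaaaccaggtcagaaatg
Tmem189 intron: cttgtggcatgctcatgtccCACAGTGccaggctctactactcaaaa

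The G1 libraries held 834 junctions in CtIP A/A and 2993 in WT, and 7068 in the double mutant and 5042 in DNA-PKcs -/-. At these depths a count of 0 allows a share of up to 0.360%, 0.10%, 0.0424% and 0.0595% of all junctions, in the same order. All intervals and limits cover counting error only, because PCR products were read with no molecular identifiers and lines need not be separate molecules. With 1 library per genotype no test of the CtIP genotype within G1 is possible: relabelling CtIP within each DNA-PKcs state gives 4 arrangements and no p under 0.5. Differences below therefore carry 95% intervals from counts, and some stand beside the largest gap between 2 G2 libraries of the same genotype. Repeat lines of 1 junction made up 15.1% and 12.5% of the CtIP A/A and WT libraries, and 6.41% and 5.55% of the double mutant and DNA-PKcs -/- libraries. Pairs of G1 libraries shared 4 to 25 identical genome junctions without telomere repeat.

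Joins onto the substrate were the main class in CtIP A/A G1 cells but not in WT G1 cells. They made up 63.7% of junctions in CtIP A/A (95% Wilson interval 60.3 to 66.9) and 39.3% in WT (37.6 to 41.1), a difference of 24.4 points (20.6 to 28). The largest gap between G2 replicates was 21.4 points. WT in G1 stood apart from its own G2 libraries, which had 69.2% and 64.0%, whereas the CtIP A/A G2 libraries had 66.0% and 63.5%. The remaining WT junctions lay mostly at dispersed genome sites outside antigen receptor loci and telomere repeats, 31.2% of junctions in CtIP A/A and 52.8% in WT. Prey made almost only of C and T, or of A and G, took 17.8% and 13.6% of the genome junctions of these libraries. With such prey left out, the substrate share was 68.1% in CtIP A/A and 42.8% in WT.

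Without DNA-PKcs the substrate share of all junctions differed little by CtIP genotype, 26.2% in the double mutant and 27.4% in DNA-PKcs -/- (difference −1.20 points, −2.81 to 0.393). This depended on the telomere-repeat junctions described next: with them left out the shares were 48.7% and 57.4% (difference −8.68 points), and with each telomere event counted once 41% and 46.4% (difference −5.37 points). Prey consisting of the telomere repeat, at least 3 exact units of 6 bp, made up 46.1% of junctions in the double mutant and 52.2% in DNA-PKcs -/- (difference −6.04 points, −7.84 to −4.24). With each event counted once the shares were 15.8% and 19.2% (difference −3.36 points). The difference over all junctions is well inside the largest gap between G2 replicates, 38.3 points. With DNA-PKcs present, such prey took 0.959% in CtIP A/A (8 of 834) and 2.44% in WT (73 of 2993).

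**Figure D1:**
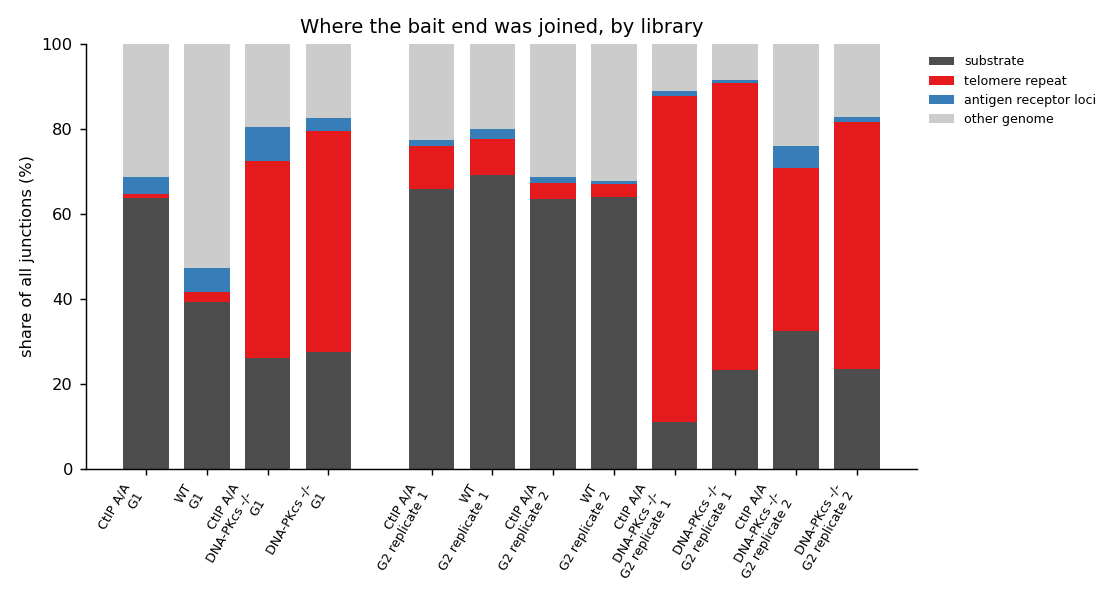
Stacked bars give the share of all junctions (%) on the substrate, on telomere repeat, in antigen receptor loci and elsewhere in the genome, for the 4 G1 libraries (left) and the 8 G2 libraries (right). The substrate share is 63.7% in CtIP A/A G1 and 39.3% in WT G1, and all 4 G2 libraries of those genotypes lie at 63.5% or above.

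Coding joins were substrate joins on the expected strand within 1000 bp of the partner coding end, 454 in CtIP A/A and 914 in WT, and 1560 in the double mutant and 1141 in DNA-PKcs -/-. Deletion is the distance in bp from the most used end position, 1947 on the bait side and 2811 on the partner side of the substrate. These are not the heptamer borders: the first coding base is 1943 on the bait side and 2813 on the partner side. Ends that keep more bases count as 0 bp. So do joins onto the inverted bait at the partner end, 26 in CtIP A/A and 67 in WT, and 62 in the double mutant and 62 in DNA-PKcs -/-. With DNA-PKcs present, the median partner deletion and the share over 20 bp had differences whose intervals included 0, while longer deletions, described further on, did differ. The median partner deletion was 6 bp in CtIP A/A and 7 bp in WT (difference −1 bp, −3.24 to 1.83), and deletions over 20 bp made up 16.5% and 17.2% of coding joins (difference −0.657 points, −4.72 to 3.70). The most used prey position, 2811, took 9.42% of substrate junctions in CtIP A/A and 8.76% in WT, and the next, 2812, took 9.42% and 6.63%. Positions 2815 and 2813 took 4.52% each in CtIP A/A, and 4.76% and 3.32% in WT.

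Without DNA-PKcs, partner ends of the double mutant had slightly longer deletions. The median partner deletion was 23 bp in the double mutant and 19 bp in DNA-PKcs -/- (difference 4 bp, 1.17 to 6.24), beyond the largest gap of 1 bp between G2 replicates. Partner deletions over 20 bp made up 53.3% and 48.5% (difference 4.87 points, 1.05 to 8.67), but the largest gap between G2 replicates was 6.72 points. The double mutant exceeded DNA-PKcs -/- also at 10 bp, with 76.5% and 70.3%, and at 50 bp, with 20.9% and 17.8%. Among joins with both ends inside the coding segments the shares over 20 bp were 60% and 57.0%, with an interval that included 0 (difference 3.08 points, −0.998 to 7.17). In G2 the order was the other way, with 37.3% and 30.6% over 20 bp in the double mutant and 41.5% and 40.3% in DNA-PKcs -/-. Position 2829, a prey position set back from the coding end, took 3.72% of substrate junctions in the double mutant and 2.96% in DNA-PKcs -/-, and position 2811 took 2.64% and 2.82%.

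At the bait end the trimming ran in the opposite direction. The median bait deletion was 26 bp in the double mutant and 32 bp in DNA-PKcs -/-, and bait deletions over 50 bp made up 31.5% and 39.4% of coding joins (difference −7.90 points, −11.5 to −4.25). In G2 the medians were 18 and 12.5 bp in the double mutant, and 27 and 16 bp in DNA-PKcs -/-. Bait deletions over 50 bp made up 25.9% and 14.2% there in the double mutant, and 35.5% and 13.6% in DNA-PKcs -/-. For both measures the DNA-PKcs -/- G2 replicates differed by more than the G1 genotypes did. Over 20 bp the G1 shares were 56.7% and 62.1% (difference −5.32 points, −9.03 to −1.57), against a largest gap of 15.3 points between G2 replicates. With DNA-PKcs present, bait deletions over 20 bp made up 16.7% in CtIP A/A and 19.1% in WT (difference −2.41 points, −6.54 to 2.02). Deletions over 20 bp at both ends ran the other way, with 6.17% in CtIP A/A (28 of 454) and 3.06% in WT (28 of 914), a difference of 3.10 points (0.813 to 5.87). At a lower threshold bait deletions did differ with DNA-PKcs present: those over 5 bp, longer ones included, made up 36.6% in CtIP A/A and 46.6% in WT (difference −10.0 points, −15.4 to −4.49). In G2 they made up 31.0% and 29.9% in CtIP A/A, and 26.4% and 25.3% in WT, so that the WT library was the higher of the pair in G1 alone. The primer limits bait deletions to at most 145 bp, while partner deletions can be longer.

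**Figure D2:**
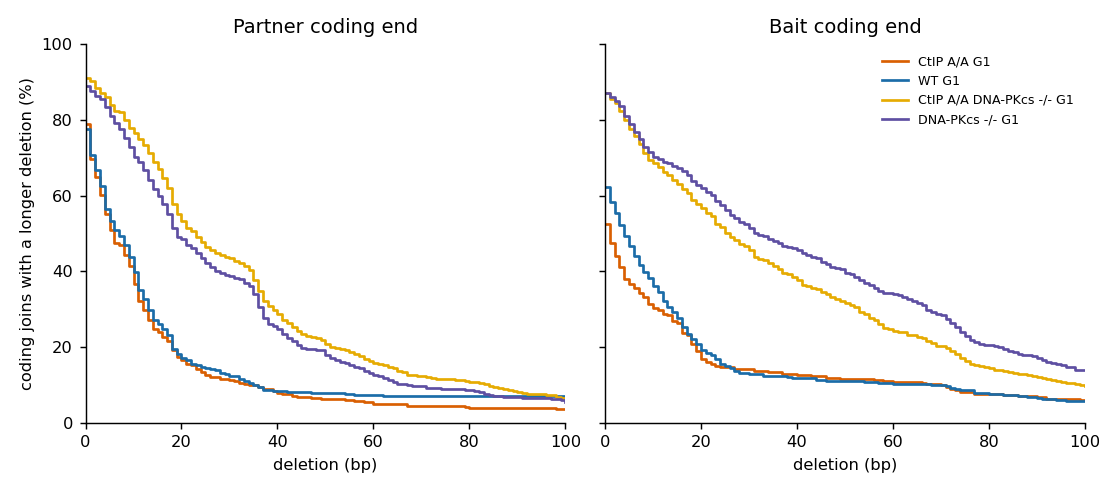
Curves give, for each G1 library, the share of coding joins (%) with a deletion longer than the value on the x axis (bp), at the partner end (left) and the bait end (right). At 20 bp the double mutant lies above DNA-PKcs -/- at the partner end (53.3% and 48.5%) and below it at the bait end (56.7% and 62.1%).

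Long partner deletions, those over 200 bp, showed the sharpest difference with DNA-PKcs present. CtIP A/A had 10 such joins of 454 (2.20%, 1.20 to 4.01) and WT had 54 of 914 (5.91%, 4.56 to 7.63), a difference of −3.71 points (−5.70 to −1.45) where G2 replicates differed by at most 0.791 points. At 100 bp the shares were 3.74% and 7.0%, and at 500 bp 0.441% and 3.61%. WT was high in G1 alone, since its G2 libraries had 4 of 322 (1.24%) and 2 of 174 (1.15%), while CtIP A/A had 0 of 303 and 1 of 331 in G2. A count of 0 of 303 allows a share of up to 0.99%. Without DNA-PKcs, 22 of 1560 joins in the double mutant (1.41%) and 12 of 1141 in DNA-PKcs -/- (1.05%) were as long (difference 0.359 points, −0.554 to 1.20). Their G2 libraries had 2.38% and 2.07% in the double mutant, and 1.57% and 2.36% in DNA-PKcs -/-.

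Most long joins of the WT library fell into 3 short stretches of the substrate rather than along the whole of it. The stretches, picked after the positions were seen as runs with steps of at most 12 bp that held 8 or more joins of 1 G1 library, span positions 3166 to 3187, 3378 to 3398 and 3417 to 3428. In CtIP A/A they held 3, 0 and 2 joins, and in WT 18, 12 and 16. In the double mutant they held 1, 1 and 0 joins, and in DNA-PKcs -/- 1, 0 and 0. Together they held 5 of 10 long joins in CtIP A/A and 46 of 54 in WT, and 2 of 22 in the double mutant and 1 of 12 in DNA-PKcs -/-. Since the stretches were found from these joins, and WT gave most of them, the counts describe and do not test. Outside the stretches, long joins made up 1.10% of coding joins in CtIP A/A (5 of 454) and 0.875% in WT (8 of 914). Of 4 long joins in the first WT G2 library, all 4 fell in the stretches, and of 2 in the second, 0 did.

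In WT the stretches held 17, 11 and 16 distinct joins. Bait ends of the long joins were mostly intact with DNA-PKcs present. A bait deletion of 0 to 3 bp was found in 6 of 10 long joins in CtIP A/A and 49 of 54 in WT, and in 7 of 22 in the double mutant and 2 of 12 in DNA-PKcs -/-. Inserted bases were present in 4 of 10 and 28 of 54, and in 6 of 22 and 2 of 12. The trinucleotide CAC, searched on the prey strand from 12 bases before the prey position to 2 bases past it, was present in 5 of 10 long joins in CtIP A/A and 43 of 54 in WT. It was present in 5 of 22 in the double mutant and 2 of 12 in DNA-PKcs -/-, and in 21.4% of all positions of that part of the substrate (171 of 800). CAC lies in or just before each of the 3 stretches, which hold 46 of the 54 WT long joins. The WT count therefore describes these few sites, found from the same joins, and does not test the motif. GTG, the same letters on the other strand, lay in the 12 bases before the prey in 3 of 10 and 7 of 54, in 6 of 22 and 2 of 12, and in 19.8% of all positions. Only 1 position was used by 3 or more distinct long joins of a library, position 3167, with 1 in CtIP A/A and 3 in WT, and 0 in the double mutant and 1 in DNA-PKcs -/-. Joins beyond the 1000 bp limit numbered 1 in CtIP A/A and 5 in WT, and 33 in the double mutant and 5 in DNA-PKcs -/-. In G2 the double mutant had 23 and 19 such joins beside 378 and 726 coding joins, and DNA-PKcs -/- had 9 and 13 beside 702 and 509. The first G2 libraries thus ran in the same direction as G1, while the second libraries of both genotypes had nearly the same ratio.

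**Figure D3:**
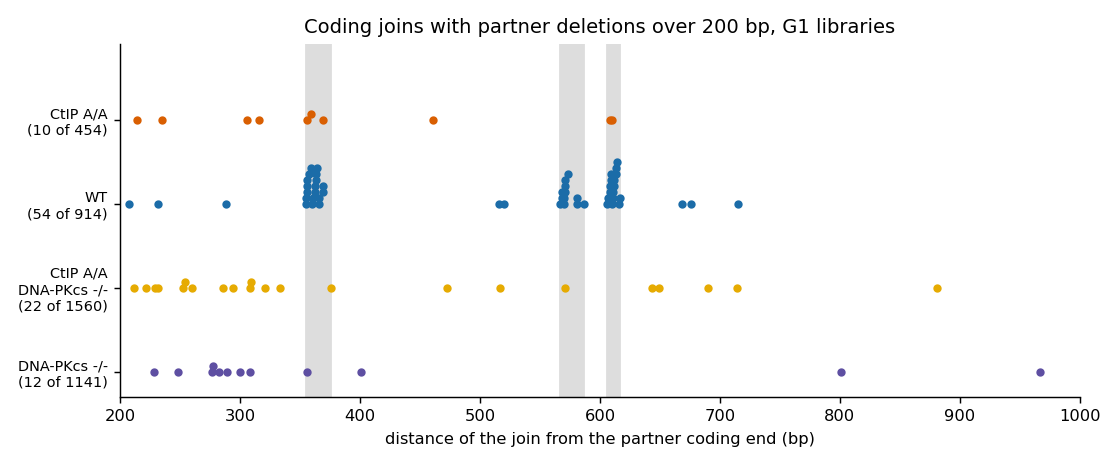
Each point is 1 coding join of a G1 library with a partner deletion over 200 bp, placed by its distance from the partner coding end (bp) and stacked where joins lie close, with grey bands for the 3 stretches. The bands hold 5 of 10 joins in CtIP A/A and 46 of 54 in WT, and 2 of 22 in the double mutant and 1 of 12 in DNA-PKcs -/-.

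With every kind of prey but coding joins, the G1 library of the double mutant kept the bait coding end intact more often than that of DNA-PKcs -/-. An intact end means here a bait deletion of 0 to 3 bp, a class chosen after the values were seen. It is counted from position 1947, so such an end can lack bases from the first coding base, 1943, onwards. Among coding joins the shares were 17.6% in the double mutant and 16.4% in DNA-PKcs -/- (difference 1.24 points, −1.66 to 4.07). Among other substrate joins they were 33.9% and 15.2% (difference 18.7 points, 11.4 to 25.5). Among joins to antigen receptor loci they were 14.2% and 5.96%, among other genome joins 22.3% and 7.72%, and among telomere-repeat joins 18.2% and 0.647%. The interval of the difference included 0 for coding joins and lay above 0 for each of the other 4 classes, at 8.23 points for antigen receptor joins, 14.5 for other genome joins and 17.5 for telomere-repeat joins.

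The G2 libraries of the DNA-PKcs -/- lines varied widely in the same measure. For telomere-repeat joins the double mutant had 14% and 36.8% in G2, and DNA-PKcs -/- had 3.52% and 22.7%. For other genome joins the double mutant had 26.5% and 34.2%, and DNA-PKcs -/- had 12.1% and 22.4%, so the genotypes did not overlap there, while for telomere-repeat joins they did. They overlapped for antigen receptor joins too, with 18.3% and 24.2% in the double mutant and 14.8% and 21.4% in DNA-PKcs -/-. For other substrate joins they did not, with 37.5% and 41.2% in the double mutant and 12.8% and 28.8% in DNA-PKcs -/-. Nor did they for coding joins in G2, with 26.5% and 27.3% in the double mutant and 17.7% and 24.6% in DNA-PKcs -/-. Many telomere-repeat lines share a bait end and following bases. With each such event counted once the G1 shares were 16.0% of 713 events in the double mutant and 1.58% of 571 in DNA-PKcs -/-.

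With DNA-PKcs present the picture was mixed. Coding joins kept the bait end in 58.8% of cases in CtIP A/A and 47.7% in WT (difference 11.1 points, 5.50 to 16.6). The WT G2 libraries had 69.3% and 71.3%, and the CtIP A/A G2 libraries 64.7% and 65.0%, so in G2 the order was reversed. Other genome joins kept it in 58.1% and 53.8% (difference 4.25 points, −2.30 to 10.6), against 24.0% and 28.3% in CtIP A/A in G2, and 38.3% and 2.15% in WT in G2. With low-complexity prey left out and identical joins counted once, the G1 shares were 73.2% in CtIP A/A (150 of 205) and 63.2% in WT (826 of 1307), and the interval of the difference then lay above 0 (9.97 points, 3.03 to 16.2). In both G1 libraries other genome joins kept the bait end more often than in any of these G2 libraries. Antigen receptor joins kept it in 88.6% and 93.9% in G1 (difference −5.37 points, −20.1 to 3.00).

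**Figure D4:**
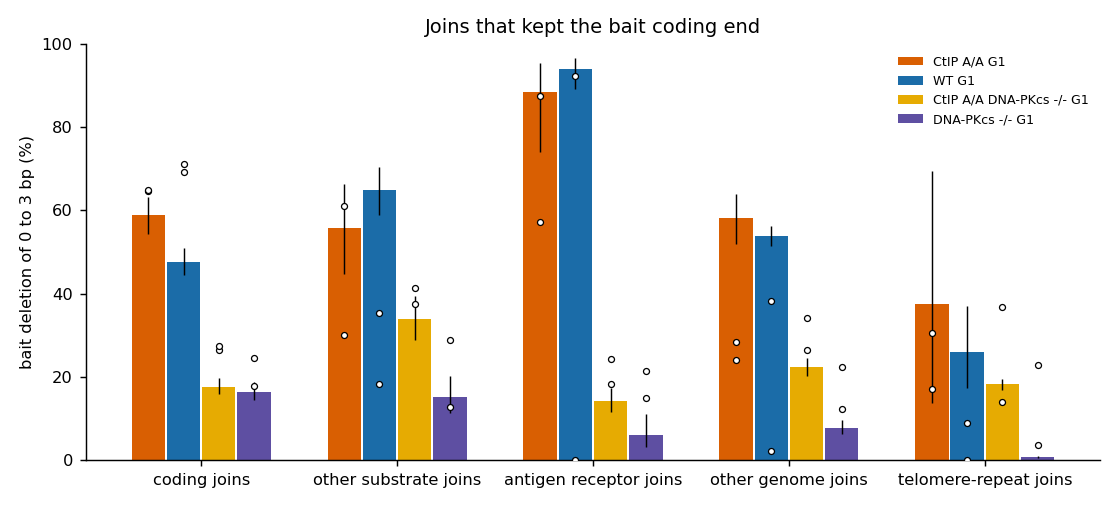
Bars give the share of joins (%) with a bait deletion of 0 to 3 bp by kind of prey in the 4 G1 libraries, black lines the 95% Wilson interval, and open circles the 2 G2 libraries of the same genotype. The double mutant stands above DNA-PKcs -/- in every class, by least in coding joins (17.6% and 16.4%).

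Among coding joins, junction structure, meaning inserted bases, direct ligation or short homology, differed little with CtIP genotype. Dispersed genome joins without DNA-PKcs, given further on, differed more. With DNA-PKcs present, inserted bases were found in 65.9% of coding joins in CtIP A/A and 63.1% in WT (difference 2.73 points, −2.70 to 8.01). Direct joins made up 13.4% and 13.5%, and microhomology of 1 bp or more was found in 20.7% and 23.4% (difference −2.71 points, −7.20 to 2.05). Insertions over 3 bp made up 31.7% in CtIP A/A and 34.1% in WT. Those of 1 to 3 bp made up 34.1% in CtIP A/A and 29.0% in WT (difference 5.15 points, −0.0383 to 10.5). Bases inserted were G or C in 66.9% and 64.7% of cases.

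Without DNA-PKcs, insertions were found in 20.2% of coding joins in the double mutant and 23.6% in DNA-PKcs -/- (difference −3.38 points, −6.57 to −0.239), well within the largest gap of 12 points between G2 replicates. Direct joins made up 37.3% and 33.7% (difference 3.65 points, −0.00709 to 7.27), and microhomology joins 42.5% and 42.8% (difference −0.270 points, −4.05 to 3.49). Insertions of 1 to 3 bp made up 16.2% and 19.3% (difference −3.06 points, −6.02 to −0.160). Homologies of 4 bp or more made up 6.03% and 7.10%. With heptamer bases trimmed off and coding-side joins alone kept, such long homologies made up 3.35% in the double mutant and 3.35% in DNA-PKcs -/-, and 1.09% in CtIP A/A and 1.06% in WT. Inserted bases were G or C in 65.8% of cases in the double mutant and 66.6% in DNA-PKcs -/-.

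The signal side of the bait break itself took a smaller share of substrate junctions with CtIP A/A in both DNA-PKcs states. These substrate classes were chosen after the values were seen. Whether G2 shows the same was not tested, so no gap between G2 replicates stands beside these differences. Joins there made up 0.753% in CtIP A/A (4 of 531) and 2.13% in WT (25 of 1176), a difference of −1.37 points (−2.47 to −0.0206). In the double mutant they made up 3.77% (70 of 1855) and in DNA-PKcs -/- 8.53% (118 of 1384), a difference of −4.75 points (−6.52 to −3.08). Joins onto the partner's signal side made up 3.20% in CtIP A/A and 2.64% in WT, and 4.26% in the double mutant and 3.76% in DNA-PKcs -/-. Both differences were under 1 point with intervals that included 0. Substrate joins away from all these borders made up 12.4% in CtIP A/A and 19% in WT (difference −6.53 points, −9.99 to −2.78), and 9.33% in the double mutant and 7.08% in DNA-PKcs -/- (difference 2.25 points, 0.319 to 4.12). In WT these included 12 distinct joins at positions 779 to 782 on the + strand, where no position had 3 or more distinct joins in the other G1 libraries, as found after the positions were seen.

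Antigen receptor loci took a larger part of the junctions in the double mutant than in any other G1 library. They held 571 of 7068 junctions in the double mutant (8.08%, 7.47 to 8.74) and 151 of 5042 in DNA-PKcs -/- (2.99%, 2.56 to 3.50), a difference of 5.08 points (4.29 to 5.87). In CtIP A/A they held 35 of 834 (4.20%) and in WT 165 of 2993 (5.51%), a difference of −1.32 points (−2.77 to 0.441). Set against genome junctions alone they took 11% in the double mutant and 4.13% in DNA-PKcs -/- (difference 6.83 points, 5.75 to 7.89), and for CtIP A/A 11.6%, with 9.08% in WT (difference 2.47 points, −0.960 to 6.74). The first difference slightly exceeded the largest gap between G2 replicates, 6.14 points, which came from the double mutant itself, with 1.62% and 7.76% in G2. DNA-PKcs -/- had 0.960% and 1.54% in G2. With telomere-repeat junctions left out, antigen receptor loci took 28.9% of genome junctions in the double mutant and 14.2% in DNA-PKcs -/-.

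The light chain locus Igk (chr6:67555497-70726966) held most of these joins. It had 24 junctions in CtIP A/A and 95 in WT, and 514 in the double mutant and 135 in DNA-PKcs -/-. Counting genome junctions without telomere repeat alone, Igk took 24 of 295 (8.14%) in CtIP A/A and 95 of 1744 (5.45%) in WT. By the same count it took 510 of 1952 (26.1%) in the double mutant and 131 of 1027 (12.8%) in DNA-PKcs -/-. The heavy chain locus Igh (chr12:113254830-116010093), which v-abl lines have usually rearranged already, had 5 and 55 junctions, 1.69% and 3.15% of the same total. By that count it had 23 in the double mutant (1.18%) and 4 in DNA-PKcs -/- (0.389%). The lambda light chain locus Igl had 3 in CtIP A/A and 9 in WT, and 22 in the double mutant and 6 in DNA-PKcs -/-. The T cell receptor loci, which B lineage cells seldom open to RAG, stayed at low counts. Tcrg had 2 and 1, and 6 and 4. Tcra/Tcrd had 0 and 4, and 2 and 1, and Tcrb had 1 and 1, and 1 and 0.

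At the J segments of Igk, joins to the coding side of a border outnumbered those to the signal side in 3 of 4 libraries. The coding side took 3 and the signal side 3 joins in CtIP A/A, and 26 and 15 in WT. In the double mutant the sides took 144 and 45 (76.2% coding, 69.6 to 81.7) and in DNA-PKcs -/- 24 and 7 (77.4%, 60.2 to 88.6). Igkj1, the most upstream J segment, had 2 coding-side joins in CtIP A/A and 9 in WT, and 87 in the double mutant and 12 in DNA-PKcs -/-. Igkj2 had 0 and 8, and 34 and 4. Igkj4 had 1 and 6, and 14 and 5, while Igkj5 had 0 and 3, and 9 and 3. Igkj3, whose heptamer is printed above with a final A, had 0 joins on either side in all 4 libraries. The median loss from the J coding end was 1 bp in CtIP A/A and 1 bp in WT, and 14 bp in the double mutant and 11.5 bp in DNA-PKcs -/-.

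V segments were hit along with the J segments. By the rule that took the 10 segments nearest to most distinct joins, Igkv1-135 had 2 distinct joins in CtIP A/A and 1 in WT, and 20 in the double mutant and 4 in DNA-PKcs -/-. Igkv19-93 had 1 and 1, and 15 and 5. Igkv8-30 had 0 and 3, and 9 and 1. A further group of 4 segments tied at 12 joins. Igkv12-46 had 0 and 0, and 10 and 2. Igkv3-7 had 0 and 0, and 11 and 1. Igkv11-114 had 0 and 3, and 5 and 4. The lambda segment Iglv1 had 1 and 5, and 6 and 0. In all, 28 segments were hit in CtIP A/A and 57 in WT, and 105 in the double mutant and 57 in DNA-PKcs -/-, at very unequal depths.

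The printed heptamer sites outside the segments were used at low counts. Between Igkj5 and Igkc, positions 70724998 to 70725047 had 1 join in CtIP A/A and 4 in WT, and 11 in the double mutant and 3 in DNA-PKcs -/-. Past Igkc, positions 70751781 to 70751823 had 2 and 5, and 3 and 0. The joins past Igkc all lay on the + strand, from the base after the printed heptamer onwards.

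**Figure D5:**
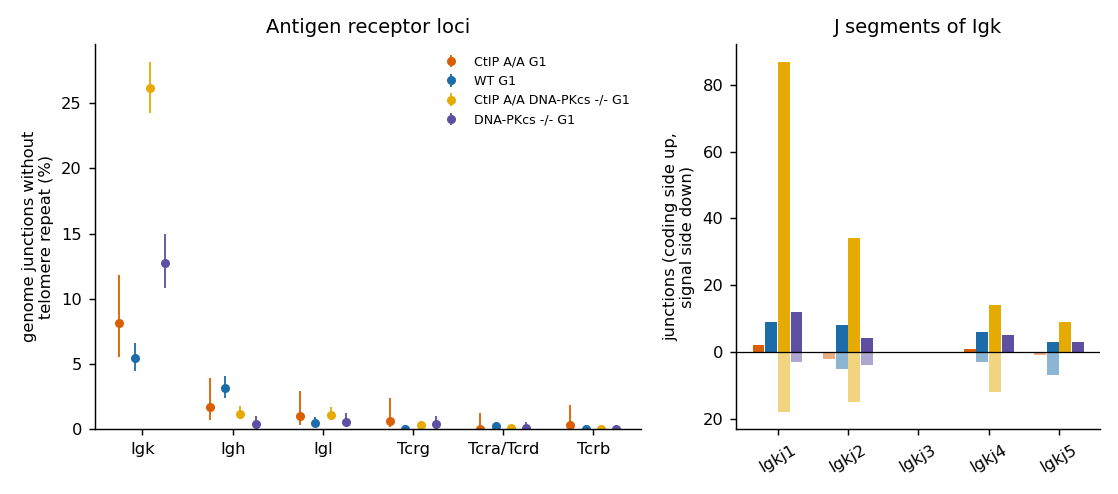
Left, share of genome junctions without telomere repeat (%) in each antigen receptor locus for the 4 G1 libraries, with 95% Wilson intervals. Right, junctions at the J segments of Igk as counts not scaled for depth, coding side above 0 and signal side (paler) below. Igk stands at 26.1% in the double mutant and 12.8% in DNA-PKcs -/-, and Igkj3 has 0 joins in all 4 libraries.

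Bait ends joined to antigen receptor loci were intact with DNA-PKcs and trimmed without it, in both CtIP genotypes. The median bait deletion was 0 bp in CtIP A/A and 0 bp in WT, and 20 bp in the double mutant and 47 bp in DNA-PKcs -/-. Bait deletions over 20 bp were found in 8.57% of these joins in CtIP A/A and 3.03% in WT (difference 5.54 points, −1.27 to 19.5). In the double mutant they were found in 49.7% and in DNA-PKcs -/- in 72.2% (difference −22.4 points, −30.1 to −13.8). In G2 they were found in 45.0% and 22.1% in the double mutant, and in 63.0% and 35.7% in DNA-PKcs -/-, so the gap between the DNA-PKcs -/- replicates was larger than the G1 difference. Insertions were found in 37.1% in CtIP A/A and 46.1% in WT, and in 14.9% in the double mutant and 15.2% in DNA-PKcs -/- (difference −0.346 points, −7.46 to 5.45). Homology was found in 34.3% in CtIP A/A and 41.8% in WT, and in 50.8% in the double mutant and 45.7% in DNA-PKcs -/- (difference 5.09 points, −3.85 to 13.8).

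Dispersed genome joins, those outside antigen receptor loci with no telomere repeat and no low-complexity prey, comprised 205 distinct joins in CtIP A/A and 1307 in WT, and 1116 in the double mutant and 689 in DNA-PKcs -/-. The prey strand was searched for GTG, the last bases of a heptamer before a coding end, in the 12 bases before the prey, a window chosen after a profile over positions was seen. Among joins with an intact bait end GTG was there in 60.7% in CtIP A/A (91 of 150) and 60.2% in WT (497 of 826), a difference of 0.497 points (−8.14 to 8.68). In a window of the same length 40 bases further out it was found in 18.0% and 17.8%. Among joins with a trimmed bait end it was found near the prey in 10.9% and 11%. Without DNA-PKcs, joins with an intact bait end had GTG near the prey in 11.2% in the double mutant (34 of 303) and 19.1% in DNA-PKcs -/- (13 of 68), and further out in 14.9% and 19.1%. A match describes these letters and does not show a RAG cut. A telomere unit of 6 bp was present in the prey of 1.95% of these joins in CtIP A/A and 5.13% in WT, and of 34.8% in the double mutant and 55.0% in DNA-PKcs -/-. Inserted bases were found in 38.0% of these joins in CtIP A/A and 39.9% in WT, and homology in 48.8% and 49.2%. Without DNA-PKcs, insertions were found in 26.3% in the double mutant and 39.6% in DNA-PKcs -/-, and homology in 58.8% and 41.9%. In G2, homology was found in 61.6% and 56.3% in the double mutant, and in 54.1% and 44.3% in DNA-PKcs -/-. Insertions were found there in 27.5% and 25.3%, and in 31.8% and 31.1%.

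Single sites recurred mostly in libraries of 1 DNA-PKcs state, except around Tmem189, where they recurred in both. Of 25 sites with at least 7 distinct joins over the G1 libraries, 15 had 2 or more telomere units within 60 bp in the genome. The counts of these 15 ran from 0 to 1 in CtIP A/A and WT, and from 2 to 13 in the double mutant and DNA-PKcs -/-. Among the other 10, the Gm31718 intron site printed above had 2 distinct joins in CtIP A/A and 12 in WT, and 0 in the double mutant and 0 in DNA-PKcs -/-. All 14 had GTG in the 12 bases before the prey, and 12 had an intact bait end. A site in an intron of Copb1 (chr7:114228082-114228093) had 1 and 8, and 0 and 0. A site in an intron of Mef2d (chr3:88143819-88143828) had 8 distinct joins in WT and 0 in the other 3 libraries. The printed Tmem189 site had 0 and 13, and 0 and 2 on the + strand. Of these 15 joins, 8 had GTG before the prey and 8 had an intact bait end. On the − strand the same stretch had 0 and 7, and 0 and 5. Nearby sites starting at 167686538, 167685289 and 167692103 had 8, 7 and 1 in WT, and 6, 1 and 6 in DNA-PKcs -/-. Each had 0 in CtIP A/A and in the double mutant. A count of 0 among 205 dispersed joins in CtIP A/A allows a share of up to 1.46%, and 13 of the 1307 in WT is 0.995%, so at this depth none of these single sites shows a difference between CtIP A/A and WT.

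Of the 10 bins of 1 Mb richest in genome junctions without telomere repeat, 4 lay in Igk, 1 in Igl and 1 in Igh. The Igh bin, starting at 115000000 on chromosome 12 and holding Ighv1-54, had 1 junction in CtIP A/A and 35 in WT, and 5 in the double mutant and 2 in DNA-PKcs -/-. The bin at 167000000 on chromosome 2, around Tmem189, had 0 of 295 in CtIP A/A and 72 of 1744 in WT (4.13%), and 0 of 1952 in the double mutant and 95 of 1027 in DNA-PKcs -/- (9.25%). It split replicates too, with 6 and 0 in the WT G2 libraries and 98 and 0 in the DNA-PKcs -/- G2 libraries, against 1 and 3 in CtIP A/A and 1 and 0 in the double mutant. The bin around Mef2d on chromosome 3 had 1 and 40, and 2 and 0. The bins at 53000000 on chromosome 6 and 98000000 on chromosome 16 were richest without DNA-PKcs, with 10 and 16 junctions in the double mutant and 24 and 16 in DNA-PKcs -/-, against 1 and 2 in CtIP A/A and 2 and 0 in WT. Listed translocation partners were hardly hit. Notch1 had 1 and 2, and 1 and 1, and Pax5 had 1 junction in WT, while Myc, Pvt1, Ccnd1, Ccnd2, Bcl6 and Mycn had 0 in all 4 libraries.

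Whether the CtIP difference in G1 departs from that in G2 was tested by permuting exactly which of the 3 libraries of a genotype counts as G1, over 81 arrangements and 10 measures. The smallest p this allows is 0.0123, although few effects could reach it. A shift in CtIP A/A G1 libraries alone leaves the statistic nearly unchanged when only libraries of CtIP wild-type genotypes are permuted. A phase difference common to all genotypes widens the null. Opposite differences in the DNA-PKcs states cancel in part, such as −3.71 and 0.359 points for partner deletions over 200 bp. A high p therefore does not show that the G1 and G2 differences are alike. None of the 10 measures reached an unadjusted p under 0.05 in this two-sided exact permutation test, and p ran from 0.333 to 0.951 (adjusted p 0.899 to 0.951). The substrate share differed by CtIP genotype by 11.6 points in G1 and −1.78 points in G2, averaged over both DNA-PKcs states (p = 0.407, exact permutation). Antigen receptor loci differed by 4.65 points in G1 and 1.18 points in G2 (p = 0.481, exact permutation), and partner deletions over 200 bp by −1.67 and −0.392 points (p = 0.568, exact permutation). Partner deletions over 20 bp differed by 2.10 points in G1 and −3.29 points in G2 (p = 0.605, exact permutation). All G1 libraries shared a sequencing run with the second G2 libraries. Against those G2 libraries alone, the G2 difference was 4.14 points for the substrate share and 3.78 points for antigen receptor loci, which leaves a G1 excess of 7.44 and 0.865 points (p = 0.875 each over 16 arrangements, exact permutation).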

How the data were processed

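HTGTS coding-join libraries were made from genomic DNA by linear amplification from a biotinylated bait primer and nested PCR, with BstBI digestion of germline substrate, per the labels' protocols. Bowtie2 and mm10 are named in the submitters' processing notes, and the labels add the substrate as an extra chromosome. The junction caller, its filters, its treatment of duplicates and all versions are not stated in these sources. The deposited lists hold 1 junction per line with positions on the genome and on the read, per the file headers, with no normalization.

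Libraries were grouped by genotype and phase in their labels. All 4 G1 libraries shared a sequencing run with the second G2 replicates. The 6 samples with I-PpoI breaks were not analysed here. Values were computed in Python 3.11.15 (numpy 2.4.6, pandas 2.3.3, scipy 1.17.1, pysam 0.24.0, matplotlib 3.10.9). Genes came from GENCODE mouse M21. A coding join lay within 1000 bp of the most used prey position on its strand, and this includes joins onto the inverted bait, counted as deletions of 0 bp. Where bait and prey alignments overlap on a read the overlap is homology, and a gap between them is an insertion. Joins to an Igk J segment lay on its strand between 5 bp upstream and 50 bp downstream of its start (coding side) or in the 50 bp before it (signal side). Low-complexity prey had over 90% C and T, or A and G. Repeated telomere events shared a bait end and the next 12 bases. Shares carry 95% Wilson intervals, differences Newcombe intervals, and medians order-statistic intervals. Interval coverage and the permutation test were checked on simulated data. The check of the permutation test did not require p under 0.05 for a planted shift. It therefore does not show that the test can detect a CtIP effect in G1.

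The libraries, measures, lists and tests were chosen with earlier results of these data known. Named loci were the 6 antigen receptor loci, Igkj1 to Igkj5, the 10 segments with most distinct joins within 500 bp, 8 partner genes, 10 megabase bins and 5 substrate positions (both by highest mean share), and positions with 3 or more distinct long joins. The stretches of long joins, recurring sites, GTG window, intact-bait class and substrate classes were chosen after the values were seen. Alternatives tried were thresholds, filters, identical junctions counted once, telomere junctions left out or counted by event, the log odds scale, 1 sequencing run and leaving out each G2 library.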

Additional observations from a re-analysis of the deposited data

How the results depend on the processing

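Depth limits CtIP A/A most, with 834 junctions. Of 114 recomputed G1 differences between CtIP genotypes, 109 moved by less than the counting error. The 5 that moved all concerned cells without DNA-PKcs. With telomere-repeat junctions left out, the substrate share differed by −8.68 points and antigen receptor loci by 14.7 points. With telomere events counted once, these were −5.37 and 12 points, and the telomere share differed by −3.36 points. Of 156 recomputed differences between the G1 and G2 effects, 15 changed sign, and p stayed at 0.111 or more in all of them (exact permutation). Bait deletions over 20 bp gave 3.36 points with coding-side joins alone and 2.76 with inverted-bait joins left out. Microhomology joins gave −0.262 with alignments trimmed at the heptamers, −3.41 without inserted joins and −0.0191 as log odds. Partner deletions over 200 bp gave 0.401 as log odds, and the telomere share gave 5.69 within 1 sequencing run. Leaving out each G2 library in turn gave −4.43 to 3.23 points for bait deletions, −3.77 to 4.56 for microhomology and −11.3 to 7.90 for the telomere share. The causes were not tested. Heptamer borders, inverted-bait joins and low-complexity prey as alternatives were chosen after seeing the data. No paired analysis was possible because the label of the 1 G1 library per genotype carries no replicate number. The comparison within the shared sequencing run, given above, matches libraries by run only.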
